A study of Mus musculus with 6 samples.

Results

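The genes of the proteasome, its regulators and its assembly factors were followed in satellite cells, which are stem cells of muscle, from Lmna HOM and Lmna WT mice. They were chosen by name: every protein-coding gene with a Psma, Psmb, Psmc, Psmd, Psme or Psmf symbol followed by a number, and Psmg1 to Psmg4. The rule found 48 of the 39059 genes in the count tables. Lmna HOM mice were homozygous for the Lmna Δ8-11 allele (-/-), which lacks exons 8 to 11. Lmna encodes lamins A and C of the nuclear envelope. Lmna WT mice were wild type (+/+). Both groups were C57BL/6J at postnatal day 19, and each had 3 libraries of total RNA from freshly sorted hind-limb cells. The labels name 3 mice per condition but do not link each library to an animal, so the p-values rest on the spread between these samples, which may be technical in part. Y-linked reads numbered 1, 4498 and 3 in Lmna HOM replicates 1 to 3, against 0, 3074 and 4831 in Lmna WT replicates 1 to 3. Y-linked reads were thus present in 1 of 3 Lmna HOM libraries and 2 of 3 Lmna WT libraries, and the 3 libraries of a genotype were not all from a single animal. The deletion is germline, so every tissue of the mouse carries it and not the satellite cell alone.

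The proteasome is the protease that degrades proteins tagged with ubiquitin. Its 20S core is a barrel of outer alpha rings, which gate the entry, and inner beta rings, which hold the cutting sites. The 19S particle caps the core: its ATPases unfold the substrate, and its non-ATPase subunits bind ubiquitin and remove it. In cells exposed to interferon, the immunoproteasome subunits Psmb8, Psmb9 and Psmb10 take the places of Psmb5, Psmb6 and Psmb7. In muscle the system is best known for the breakdown of myofibrillar proteins during atrophy.

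The libraries held 7234298 to 9552751 gene reads in Lmna HOM and 6613636 to 8426578 in Lmna WT. Lmna itself stood at 435, 374 and 449 CPM (read counts scaled to library size with TMM factors) in Lmna HOM, against 840, 936 and 1054 CPM in Lmna WT. It fell by 1.17 on the log2 scale (SE 0.14, adjusted p = 0.0010), and its counts include exons outside the deletion. The satellite markers Pax7, Myf5, Chodl, Vcam1, Itga7, Cdh15 and Calcr were all detected. Their summed level was 534, 1210 and 625 CPM in Lmna HOM, against 1649, 1540 and 1572 CPM in Lmna WT. Of the 7, 5 fell, where 11.5% of all genes tested did. Smooth muscle and pericyte markers summed to 10762 to 11676 CPM in Lmna HOM and 10609 to 15263 CPM in Lmna WT, above the satellite markers in every library. Schwann markers summed to 3818 to 5419 CPM in Lmna HOM and 5086 to 6506 CPM in Lmna WT. Adipocyte markers summed to 54.4 to 381 CPM in Lmna HOM and 0.461 to 1.01 CPM in Lmna WT. The part of these differences in the results that follow was not tested, and in bulk RNA fewer cells of a type and less RNA per cell cannot be told apart. The gene Gm42418 took 1.30% of gene reads in Lmna HOM replicate 2 and 1.39% in Lmna WT replicate 2, and at most 0.180% in the other libraries.

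Summed over all members, proteasome transcripts were at similar levels in both genotypes. Their summed level was 2618, 2309 and 2425 CPM in Lmna HOM, against 2257, 2746 and 2286 CPM in Lmna WT. The groups overlapped, with means of 2451 ± 156 CPM in Lmna HOM and 2430 ± 274 CPM in Lmna WT (SD, n = 3 each). 46 of the 48 members passed the filter on low counts. The exceptions were Psma8, the testis form of an alpha subunit, with 1 read over the Lmna HOM libraries and 2 over the Lmna WT libraries, and Psmb11, the thymus form of the beta5 subunit, with 2 reads in Lmna HOM and 0 in Lmna WT. No member rose and 2 fell, Psmd14 and Psme1, by edgeR's quasi-likelihood test with Benjamini-Hochberg adjustment over 14099 genes at a threshold of 0.05. That is 4.35% of the members tested, where 21.1% of all genes tested were called in either direction, 9.67% higher and 11.5% lower. 6 of the 46 members had an unadjusted p under 0.05, as did 5058 of the 14099 genes. The DESeq2 Wald test called 1 member higher and 1 lower, and 1174 of the 14099 genes higher and 1515 lower.

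The fold changes of the members were small as well as rarely called. The median log2 fold change was -0.01 over the 46 members and -0.0038 over all genes tested, and the median size without its sign was 0.16 for members and 0.30 for all genes. The median standard error was 0.14 for members and 0.18 for all genes. The 95% interval lay within a 1.5-fold change in either direction for 35 of the 46 members, and for 4927 of the 14099 genes. It lay within a 2-fold change for 43 members and 9725 genes.

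**Figure D1:**
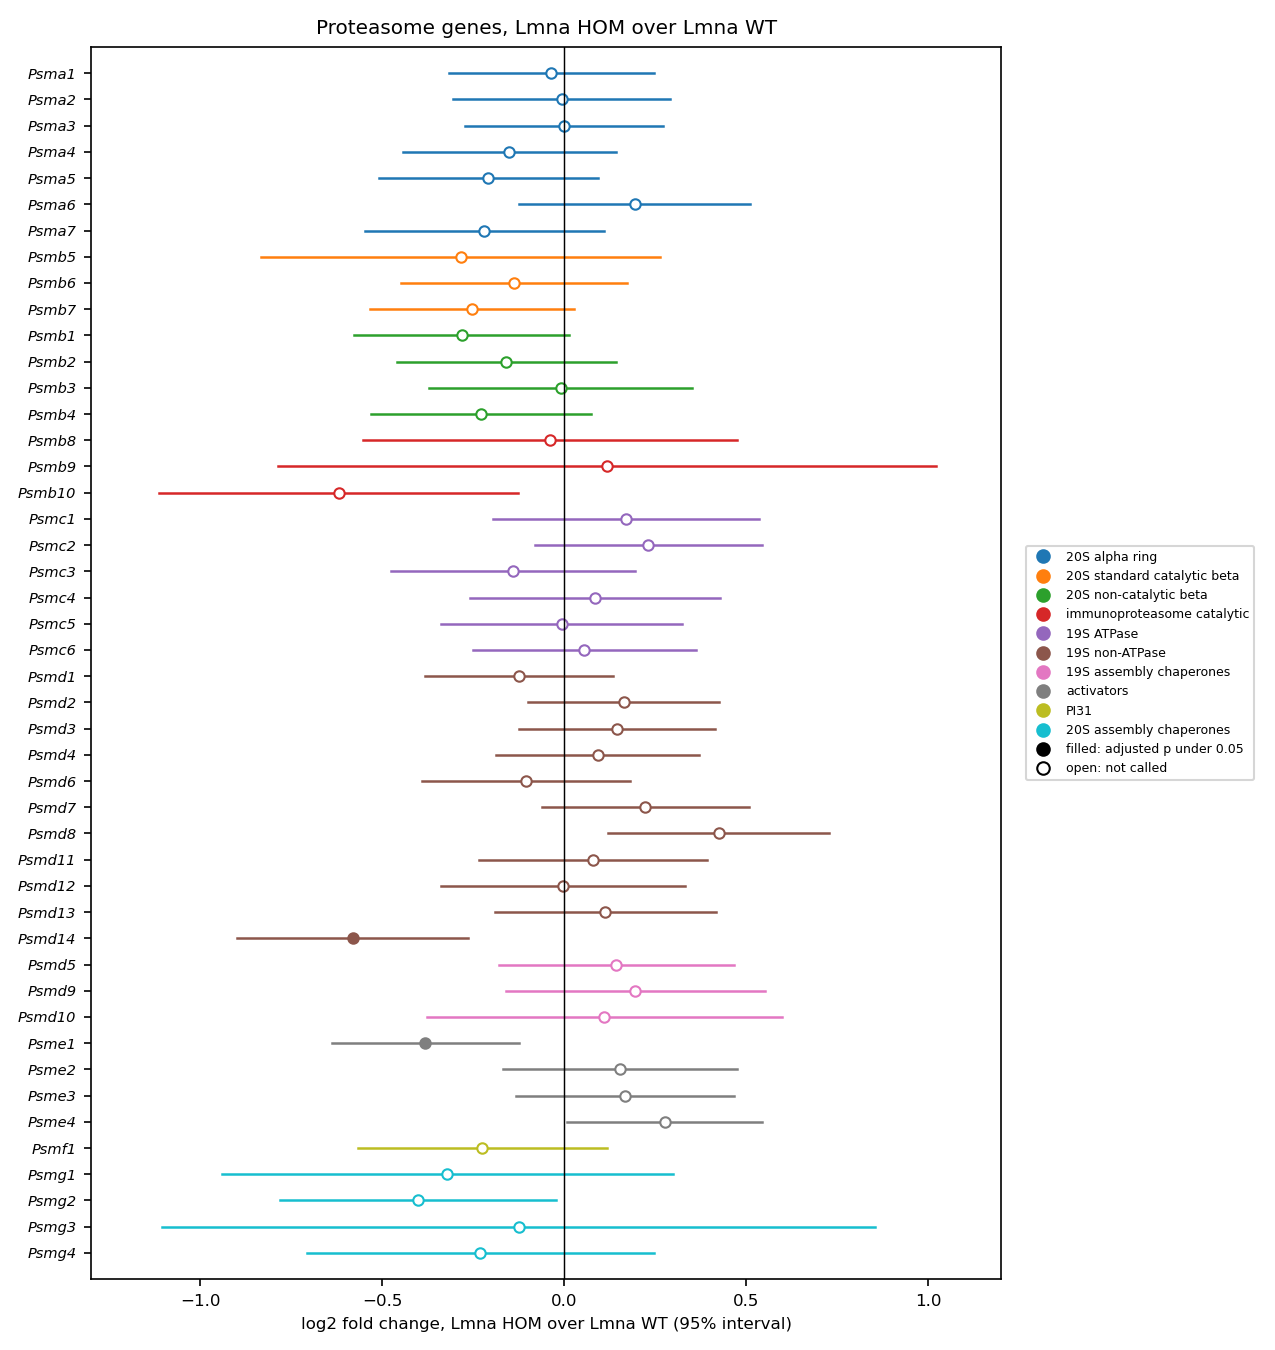
Log2 fold change of each tested member, Lmna HOM over Lmna WT, with its 95% interval, coloured by class of subunit; filled points passed an adjusted p of 0.05. Psmd14 and Psme1 are the only filled points, and all standard beta subunits (Psmb1 to Psmb7) lie left of 0.

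Psmd14 encodes Rpn11, the metalloprotease of the 19S lid that cuts ubiquitin chains off the substrate as it enters the core. Its level was 32.3, 26.8 and 29.9 CPM in Lmna HOM, against 40.7, 52.3 and 40.4 CPM in Lmna WT. All Lmna HOM libraries were below all Lmna WT libraries, as for 20.6% of genes tested. Psmd14 fell by 0.58 on the log2 scale (SE 0.14, adjusted p = 0.0181), with a 95% interval of -0.90 to -0.27. The call was lost without Lmna HOM replicate 3 (adjusted p = 0.0585), without Lmna WT replicate 2 (adjusted p = 0.0574), and without both libraries high in Gm42418, where the log2 fold change was -0.39 (adjusted p = 0.0575).

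Rpn11 works as a heterodimer with Rpn8, the product of Psmd7. Psmd7 had 47.1, 44.1 and 37.5 CPM in Lmna HOM, against 34.0, 38.2 and 38.1 CPM in Lmna WT. These values overlapped (log2 fold change 0.22, SE 0.13, adjusted p = 0.238). Per kilobase of transcript, the ratio of Psmd14 to Psmd7 within a library was 0.704, 0.625 and 0.819 in Lmna HOM, against 1.23, 1.40 and 1.09 in Lmna WT. The ratio was lower in each Lmna HOM library than in each Lmna WT library, which does not depend on the length used. Which partner is higher does: with the union of all exons as length, Psmd14 averaged 10.5 and Psmd7 19.0 CPM per kilobase in Lmna HOM, against 15.8 and 16.3 in Lmna WT. This ratio was chosen after the values were seen and is given with no test.

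Psme1 encodes PA28 alpha, which forms a ring with PA28 beta (Psme2) that opens the 20S core without ubiquitin. Its level was 26.1, 28.0 and 26.5 CPM in Lmna HOM, against 35.8, 35.3 and 33.9 CPM in Lmna WT. The groups did not overlap, and Psme1 fell by 0.38 on the log2 scale (SE 0.12, adjusted p = 0.0407). The call stood near the threshold. It was lost with library totals in place of TMM (adjusted p = 0.0683), with DESeq2 (0.102), with no filter on low counts (0.0790) and with replicate number as a block (0.0998). The call was also lost with Y-linked reads, present or absent, as covariate (0.0992) and without both libraries high in Gm42418 (0.0521). The same held without any single library other than Lmna HOM replicate 2 (0.0743 to 0.126).

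Its ring partner Psme2 had 29.8, 28.5 and 28.2 CPM in Lmna HOM, against 23.2, 31.1 and 23.8 CPM in Lmna WT. The groups overlapped (log2 fold change 0.15, SE 0.14, adjusted p = 0.474). The ratio of Psme1 to Psme2 per kilobase was 0.756, 0.849 and 0.813 in Lmna HOM, against 1.33, 0.984 and 1.23 in Lmna WT, a description chosen after the values were seen. Near-identical sequence elsewhere in the annotation covers 82.5% of the Psme2 transcript, Psme2b among it, so the Psme2 counts are uncertain to that extent. No such copy was found for Psme1, Psmd14 or Psmd8.

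The remaining activators did not pass the test. Psme3, the nuclear PA28 gamma, had 35.1, 30.9 and 39.8 CPM in Lmna HOM, against 28.7, 32.8 and 32.7 CPM in Lmna WT (log2 fold change 0.17, SE 0.13, adjusted p = 0.402). Psme4, the large nuclear activator PA200, was the most abundant member before correction for length. It had 260.5, 238 and 238 CPM in Lmna HOM, against 198, 186 and 225 CPM in Lmna WT. The groups did not overlap, as for 20.2% of genes tested with Lmna HOM above, and the log2 fold change was 0.28 (SE 0.12, adjusted p = 0.129). Psmf1, the core inhibitor PI31, had 14.4, 18.9 and 15.5 CPM in Lmna HOM, against 19.96, 19.0 and 18.2 CPM in Lmna WT (log2 fold change -0.22, SE 0.15, adjusted p = 0.321).

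**Figure D2:**
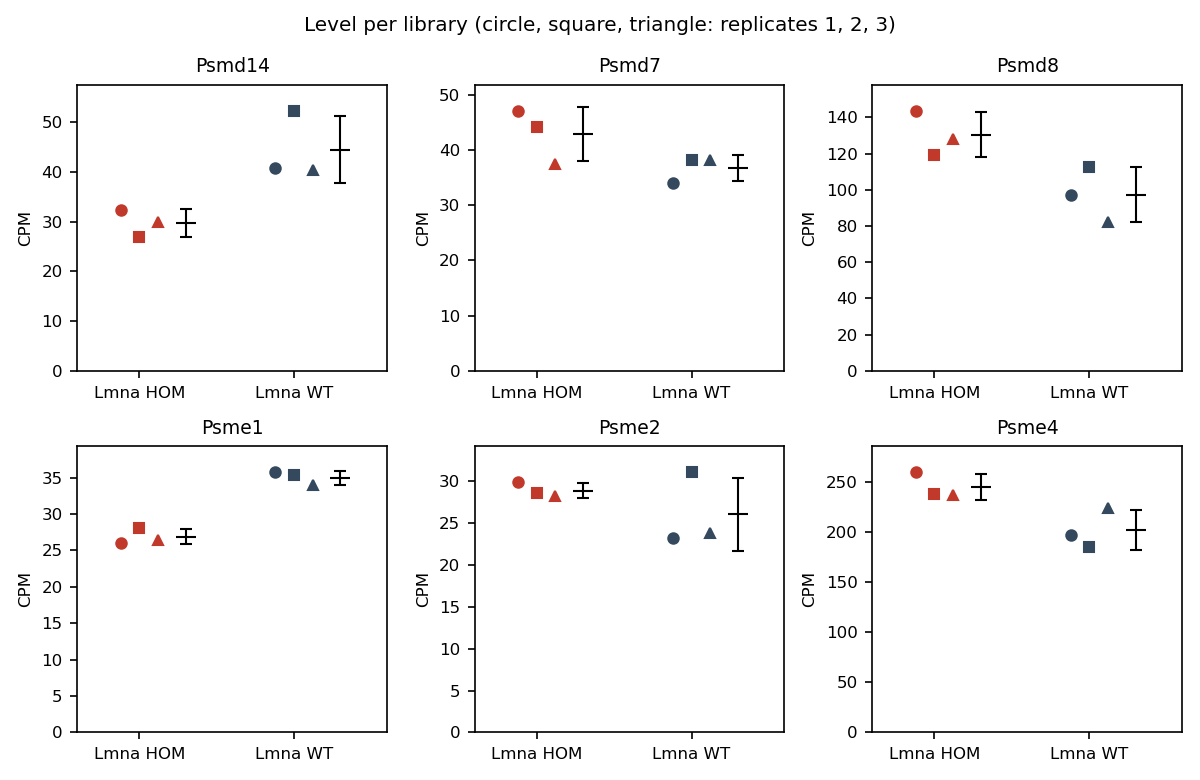
CPM of 6 members in each library (circle, square and triangle for replicates 1, 2 and 3), with mean and SD of 3 libraries at the side. Psmd14 and Psme1 are lower in every Lmna HOM library, while their partners Psmd7 and Psme2 overlap between genotypes.

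Sequences before the transcription start are shown for the called members Psmd14 and Psme1, which held none of the motifs searched, and for a core and an immunoproteasome subunit that held a motif. They are the 250 bases upstream of the RefSeq start on GRCm38.p6, 5′ to 3′ on the gene's strand, with the motif in capitals. Psmd14 is at chr2:61711444-61711693 (+ strand), Psme1 at chr14:55578244-55578493 (+), Psmb5 at chr14:54617996-54618245 (- strand) and Psmb8 at chr17:34197945-34198194 (+). The GENCODE annotation used for the gene symbols starts Psme1 at 55578123 and Psmb8 at 34197721. The windows of these 2 genes thus lie inside the annotated gene, and that of Psmb5 overlaps its gene, which begins at 54618022.
Psmd14: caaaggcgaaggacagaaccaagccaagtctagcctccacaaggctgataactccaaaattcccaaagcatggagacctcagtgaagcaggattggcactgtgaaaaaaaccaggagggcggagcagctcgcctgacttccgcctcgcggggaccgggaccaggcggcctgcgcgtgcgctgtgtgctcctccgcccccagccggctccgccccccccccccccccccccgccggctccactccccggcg
Psme1: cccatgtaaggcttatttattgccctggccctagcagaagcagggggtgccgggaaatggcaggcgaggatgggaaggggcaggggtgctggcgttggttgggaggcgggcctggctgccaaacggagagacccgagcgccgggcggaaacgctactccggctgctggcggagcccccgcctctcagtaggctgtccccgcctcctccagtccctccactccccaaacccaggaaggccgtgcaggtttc
Psmb5: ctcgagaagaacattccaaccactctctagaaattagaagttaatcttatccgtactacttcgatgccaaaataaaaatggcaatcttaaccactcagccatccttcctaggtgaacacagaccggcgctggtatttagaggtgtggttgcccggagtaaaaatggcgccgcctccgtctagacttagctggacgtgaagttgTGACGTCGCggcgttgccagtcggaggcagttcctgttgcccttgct
Psmb8: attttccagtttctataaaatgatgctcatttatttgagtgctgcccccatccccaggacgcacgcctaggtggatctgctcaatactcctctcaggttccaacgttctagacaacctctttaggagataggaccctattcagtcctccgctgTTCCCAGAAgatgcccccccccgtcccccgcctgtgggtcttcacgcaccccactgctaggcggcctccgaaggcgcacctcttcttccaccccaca
The capitals in Psmb5 mark the core of the antioxidant response element, TGACNNNGC, which factors of the NRF family bind, starting 47 bases before the start site. The capitals in Psmb8 mark a gamma-activated site, TTCNNNGAA, a motif of interferon-responsive promoters.

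40 of the 48 members matched the promoter table. On either strand, TGACNNNGC was found in 5 of the 40 (12.5%), in Psmb5, Psmb6, Psmc6, Psmd12 and Psmd9, and in 10.1% of all 27025 promoters. The core of the interferon-stimulated response element was in 3 of the 40 (7.5%), in Psmb3, Psmd4 and Psmd9, and in 3.04% of all promoters. TTCNNNGAA was in 2 of the 40 (5.0%), in Psmb8 and Psmg1, and in 7.18% of all promoters. These are matches of letters in a window and describe no binding.

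In the 20S core, no standard subunit passed the test. The log2 fold change was below 0 for 13 of the 14 genes, with a median of -0.15 and a range of -0.28 to 0.19. Among the 7 alpha ring genes it was below 0 for 6, with a median of -0.04, and Psma6 was the exception at 0.19. Of these, Psma5 had the smallest p, with 45.5, 49.9 and 44.0 CPM in Lmna HOM, against 48.8, 63.9 and 48.7 CPM in Lmna WT. Its values overlapped between genotypes, and the log2 fold change was -0.21 (SE 0.14, adjusted p = 0.297). Near-identical copies cover 76.5% of the Psma5 transcript, so its counts are uncertain.

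All 7 standard beta ring genes had log2 fold changes below 0, with a median of -0.23. Psmb1, a non-catalytic subunit, had 68.9, 60.4 and 57.3 CPM in Lmna HOM, against 72.7, 88.0 and 66.3 CPM in Lmna WT. Its groups overlapped (log2 fold change -0.28, SE 0.13, adjusted p = 0.156). The caspase-like subunit Psmb6 had 68.2, 64.2 and 71.3 CPM in Lmna HOM, against 65.9, 91.3 and 67.1 CPM in Lmna WT (log2 fold change -0.14, SE 0.14, adjusted p = 0.513). Here a single wild-type library, replicate 2, stood above the rest. The trypsin-like subunit Psmb7 had 62.7, 58.9 and 67.6 CPM in Lmna HOM, against 67.0, 87.2 and 71.6 CPM in Lmna WT (log2 fold change -0.25, SE 0.13, adjusted p = 0.176). It shares 405 bases of exon with Nek6 on the opposite strand, so its counts and its ratio to Psmb10 are uncertain to that extent. The chymotrypsin-like subunit Psmb5, the main target of bortezomib, had 12.5, 10.8 and 13.8 CPM in Lmna HOM, against 13.5, 21.4 and 10.6 CPM in Lmna WT (log2 fold change -0.28, SE 0.25, adjusted p = 0.437). Near-identical copies cover 88.4% of the Psmb5 transcript, so its counts are uncertain.

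The immunoproteasome subunits were scarce in both genotypes. Psmb8 had 6.69, 6.55 and 9.40 CPM in Lmna HOM, against 7.96, 6.18 and 8.99 CPM in Lmna WT (log2 fold change -0.04, SE 0.23, adjusted p = 0.919). Psmb9 had 3.76, 3.49 and 2.09 CPM in Lmna HOM, against 2.88, 1.27 and 4.30 CPM in Lmna WT (log2 fold change 0.12, SE 0.41, adjusted p = 0.862). Both overlapped between genotypes. Psmb10 had 5.30, 7.40 and 7.44 CPM in Lmna HOM, against 10.5, 12.2 and 8.48 CPM in Lmna WT. All its Lmna HOM values were below all Lmna WT values, but it did not pass the test (log2 fold change -0.62, SE 0.22, adjusted p = 0.0721). Psmb9 and Psmb8 share 212 and 498 bases of exon with genes on the opposite strand (Tap1 and Gm20496), and whether the counting used strand is not stated here, so both counts are uncertain to that extent.

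Per kilobase of transcript, the immunoproteasome subunits made up 6.65, 7.88 and 7.38% of the catalytic subunit level in Lmna HOM, against 8.82, 6.18 and 8.78% in Lmna WT. The ratio of Psmb10 to Psmb7 was 0.0747, 0.111 and 0.0974 in Lmna HOM, against 0.139, 0.124 and 0.105 in Lmna WT. The ratio of Psmb8 to Psmb5 was 0.295, 0.336 and 0.375 in Lmna HOM, against 0.326, 0.160 and 0.467 in Lmna WT. All these quantities overlapped between genotypes, as did the ratio of Psmb9 to Psmb6. Leucocytes are a common source of these subunits, and 11 of the 12 leucocyte markers passed the filter. The summed level of the 12 was 37.5 to 65.0 CPM in Lmna HOM and 41.8 to 106 CPM in Lmna WT. Of the 11 tested, 1 was higher, Cd68, and none lower, where 9.67% of all genes tested rose and 11.5% fell. Ptprc, the pan-leucocyte antigen, stood at 1.81 to 9.20 CPM in Lmna HOM and 2.54 to 15.6 CPM in Lmna WT, and no marker of the list was at 0 in all libraries. Their part in the immunoproteasome levels was not tested.

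**Figure D3:**
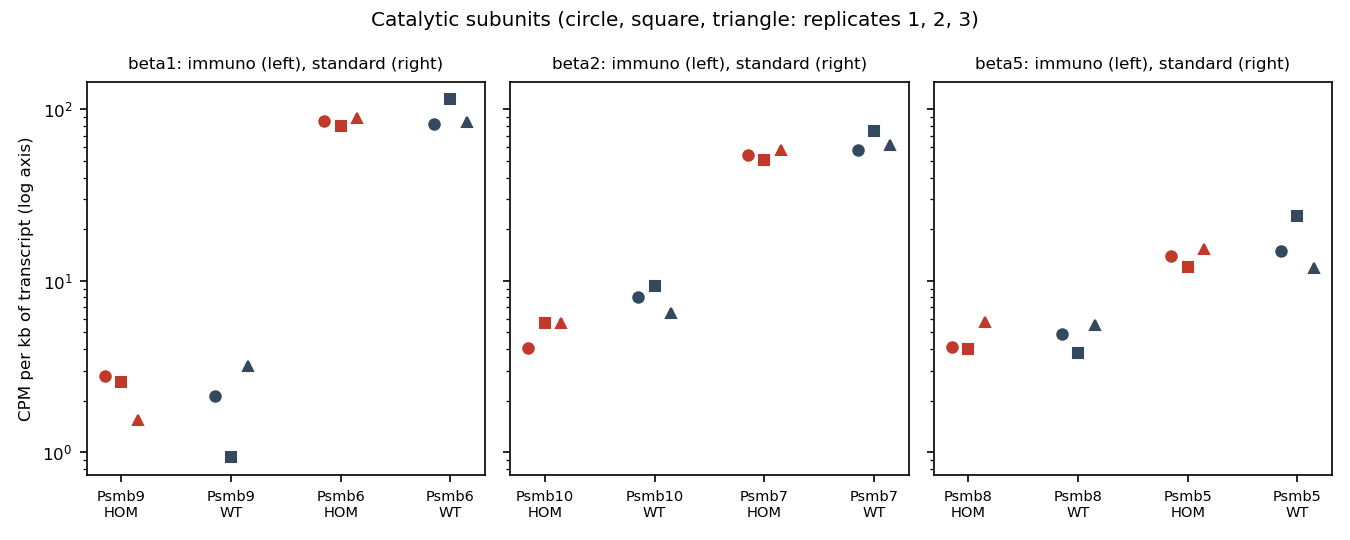
CPM per kilobase of transcript (log axis) of each immunoproteasome subunit and the standard subunit it replaces, in each library (circle, square and triangle for replicates 1, 2 and 3). Every immunoproteasome value lies below every value of its standard counterpart, and of these subunits only Psmb10 separates the genotypes.

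Of the 17 subunits of the 19S particle, 11 had log2 fold changes above 0 and 6 below, with a median of 0.09, and Psmd14 was the 1 called. Among the 6 ATPases, which form the unfolding ring, the log2 fold change ran from -0.14 to 0.23 and was above 0 for 4. Psmc2 (Rpt1) had the smallest p of these, with 47.0, 37.3 and 41.5 CPM in Lmna HOM, against 31.8, 40.9 and 34.6 CPM in Lmna WT (log2 fold change 0.23, SE 0.14, adjusted p = 0.264). Its values overlapped between genotypes.

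Among the 11 non-ATPase subunits, 7 had log2 fold changes above 0. Psmd8, which encodes the lid subunit Rpn12, lay just outside the threshold and was singled out after its values were seen. It had 144, 119 and 128 CPM in Lmna HOM, against 97.1, 112 and 82.2 CPM in Lmna WT. The groups did not overlap, and the log2 fold change was 0.42 (SE 0.14, adjusted p = 0.0507). It passed with DESeq2 size factors (adjusted p = 0.0488), library totals (0.0367), the DESeq2 Wald test (0.0365) and no filter on low counts (0.0261). It also passed without both libraries high in Gm42418, at a log2 fold change of 0.60 (adjusted p = 0.0059), without Lmna HOM replicate 2 (0.0271) and without Lmna WT replicate 2 (0.0356). It did not pass with a filter of 1 CPM in 3 libraries (adjusted p = 0.0517), library totals over the tested genes (0.0508) or replicate number as a block (0.0772). Nor did it pass with Y-linked reads as covariate (0.123), or without any single other library (0.108 to 0.156).

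The assembly factors showed both signs. The 19S chaperones Psmd5, Psmd9 and Psmd10, which escort the ATPases, had log2 fold changes of 0.14, 0.20 and 0.11, and none passed the test. Psmd9 (p27) had the smallest p of these, with 23.8, 20.4 and 29.1 CPM in Lmna HOM, against 21.7, 22.8 and 19.5 CPM in Lmna WT (SE 0.16, adjusted p = 0.411). It shares 1849 bases of exon with Gm26745 on the opposite strand. The 20S chaperones, which build the alpha ring, had log2 fold changes below 0 in 4 of 4. Psmg2 (PAC2) had 8.64, 10.3 and 10.7 CPM in Lmna HOM, against 13.2, 13.9 and 12.2 CPM in Lmna WT. Its groups did not overlap, yet it did not pass (log2 fold change -0.40, SE 0.17, adjusted p = 0.119). Psmg1 (PAC1) had 9.20, 4.54 and 8.09 CPM in Lmna HOM, against 8.08, 7.77 and 11.1 CPM in Lmna WT (log2 fold change -0.32, SE 0.28, adjusted p = 0.438). Psmg3 had 1.39, 1.27 and 3.65 CPM in Lmna HOM, against 2.65, 2.54 and 1.65 CPM in Lmna WT (log2 fold change -0.13, SE 0.44, adjusted p = 0.864). Psmg4 had 8.37, 5.81 and 6.26 CPM in Lmna HOM, against 7.38, 8.72 and 7.85 CPM in Lmna WT (log2 fold change -0.23, SE 0.21, adjusted p = 0.469). The standard errors of these chaperones were 0.17 to 0.44, all above the median of 0.14 for members.

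Summed over their subunits, the particles overlapped between genotypes. The 17 genes of the 19S particle summed to 1272, 1118 and 1162 CPM in Lmna HOM, against 1047, 1303 and 1041 CPM in Lmna WT. The 14 standard 20S genes summed to 868, 748 and 801 CPM in Lmna HOM, against 795, 1022 and 804 CPM in Lmna WT. Within a library, however, the ratio of 19S to 20S was 1.47, 1.49 and 1.45 in Lmna HOM, against 1.32, 1.27 and 1.29 in Lmna WT. Each Lmna HOM library was above each Lmna WT library, by 0.18 on the log2 scale. A ratio within a library does not depend on how libraries are scaled. It was chosen after the values were seen and carries no test.

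The ratio did not rest on a single subunit. With any 1 of the 31 genes left out, the log2 difference was 0.14 to 0.21 and Lmna HOM stayed above Lmna WT in 31 of 31 cases. Without the 7 genes that have near-identical copies over more than 50% of the transcript, the ratio was 1.42, 1.46 and 1.40 in Lmna HOM, against 1.31, 1.27 and 1.26 in Lmna WT. By CPM alone, 2 of the 31 genes, Psmd14 and Psmd8, did not overlap between genotypes, as against 40.7% of all genes tested. Within the core, the ratio of summed beta to summed alpha genes was 0.799, 0.825 and 0.853 in Lmna HOM, against 0.929, 0.954 and 0.855 in Lmna WT, with the highest Lmna HOM library close to the lowest Lmna WT library.

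**Figure D4:**
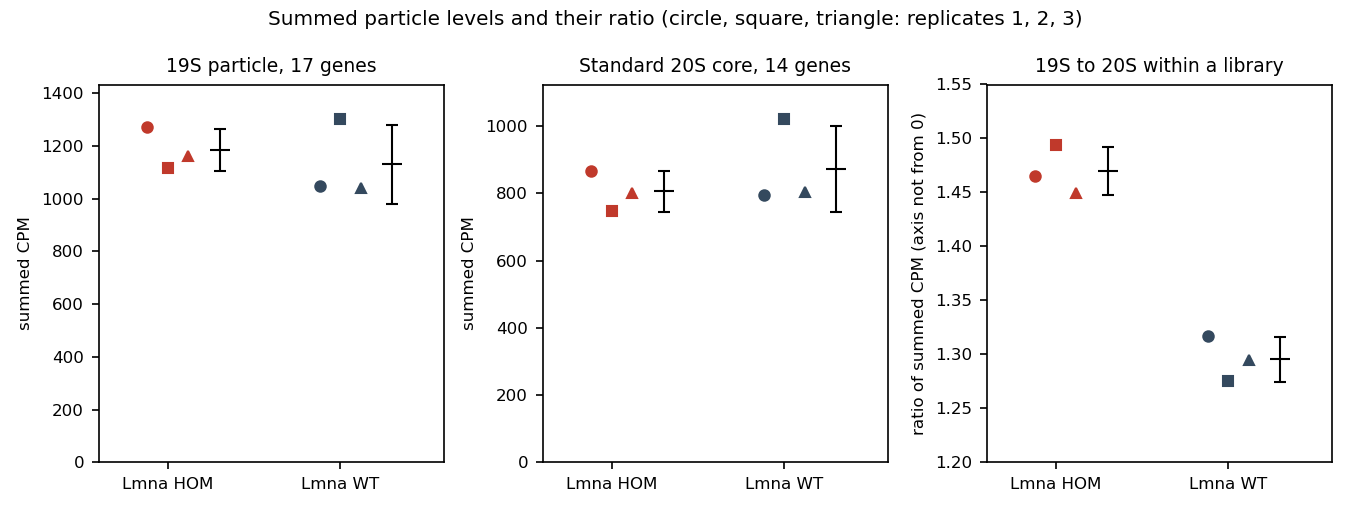
Summed CPM of the 19S particle and the standard 20S core in each library, and their ratio within a library (axis not from 0), with mean and SD of 3 libraries at the side; circle, square and triangle are replicates 1, 2 and 3. The sums overlap, whereas the ratio is 1.45 to 1.49 in Lmna HOM and 1.27 to 1.32 in Lmna WT.

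Proteasome genes varied together between libraries of a genotype. Lmna HOM replicate 1 was the highest of its group for 31 of the 46 members (67.4%), and for 34.1% of all genes tested. Lmna HOM replicate 2 was the lowest of its group for 27 members (58.7%), and for 35.7% of all genes tested. Lmna WT replicate 2 was the highest of its group for 37 members (80.4%), and for 38.0% of all genes tested. In the 20S core that library was the highest wild-type library for 14 of 14 genes. The libraries high in Gm42418 thus stood at opposite ends of their groups. Lmna WT replicate 2 was also the shallowest library and the wild-type library with the most Mki67, a marker of cycling cells. Mki67 stood at 8.92, 11.9 and 9.14 CPM in Lmna HOM, against 50.5, 140.4 and 43.0 CPM in Lmna WT. The part of depth and Mki67 in the core values was not tested. With all libraries, the log2 difference in summed level was -0.12 for the 20S core and 0.07 for the 19S particle. Without Lmna WT replicate 2 it was 0.012 for the core and 0.18 for the 19S particle, both above 0. Without both libraries high in Gm42418 it was 0.06 for the core and 0.22 for the 19S particle. For the 19S particle it was 0.0090 without Lmna WT replicate 1, 0.0093 without Lmna WT replicate 3, 0.019 without Lmna HOM replicate 1 and 0.10 without Lmna HOM replicate 2. For the core it was -0.19 without Lmna WT replicate 1 and -0.067 without Lmna HOM replicate 2. The 19S to 20S ratio kept a difference of 0.17 to 0.19 when any single library was left out.

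Subunits that enter the particle in equal number did not have equal transcript levels. Per kilobase of the principal transcript, the 20S genes ran from Psmb5 (13.8 CPM per kilobase in Lmna HOM and 16.9 in Lmna WT) to Psmb6 (85.0 in Lmna HOM and 93.7 in Lmna WT). The lowest 19S gene was Psmd11, with 17.1 CPM per kilobase in Lmna HOM and 16.2 in Lmna WT. The highest was Psmd8 in Lmna HOM at 84.6 and Psmc3 in Lmna WT at 77.2. The median was 46.5 CPM per kilobase in Lmna HOM and 49.6 in Lmna WT for 20S genes, and 28.1 in Lmna HOM and 28.9 in Lmna WT for 19S genes. In the order of the 31 genes, 3 of 30 neighbouring pairs did not overlap in Lmna HOM and 0 of 30 in Lmna WT. The ranges over libraries thus do not resolve the order. Members varied together between libraries, so overlapping ranges do not show whether the order changed within a library. The lowest genes, Psmb5 and Psmd11, have near-identical copies over 88.4% and 52.7% of the transcript, where reads can be lost to other loci, so their low levels are uncertain. With the union of all exons as length, Psmb1 was lowest and Psma6 highest in the 20S core.

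**Figure D5:**
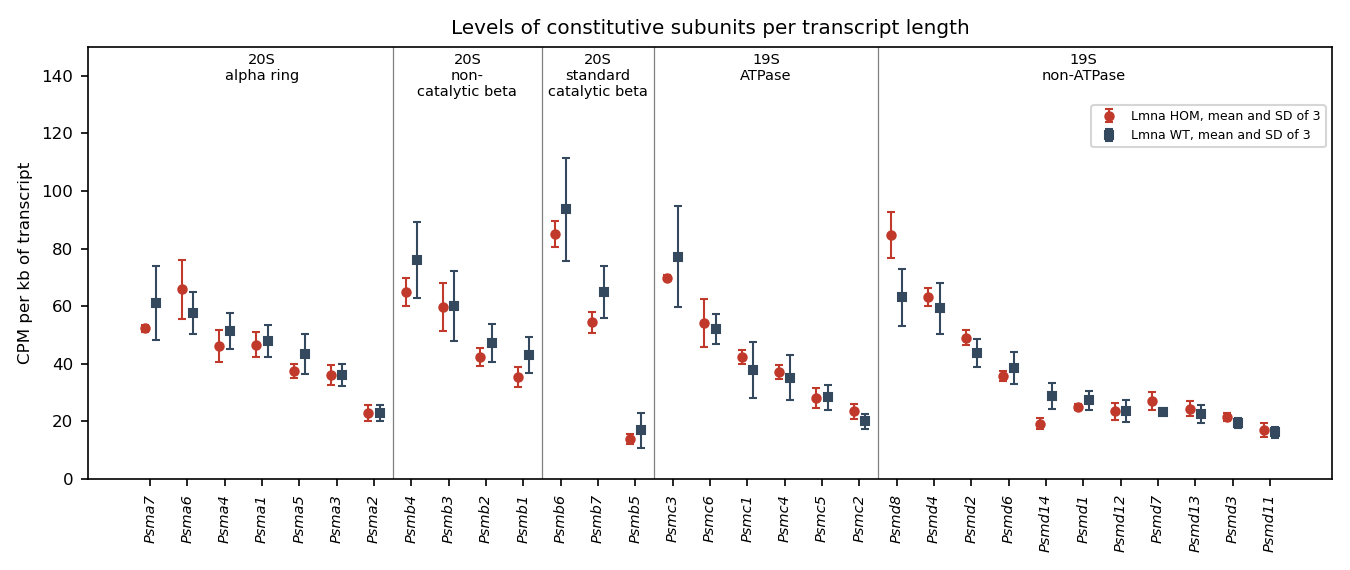
Mean and SD over 3 libraries of CPM per kilobase of principal transcript for the 31 constitutive subunits, by class. In Lmna HOM the 20S genes run from 13.8 to 85.0, and of the 31 genes Psmd14 and Psmd8 are those with no overlap between genotypes.

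Genes that act with the proteasome but fall outside the naming rule were taken from lists. Of the 11 proteasome-associated factors, 10 were tested and none was called, where 21.1% of all genes tested were. The most abundant, Zfand5, a proteasome activator in muscle atrophy, had 417, 387 and 369 CPM in Lmna HOM, against 451, 480 and 546 CPM in Lmna WT (log2 fold change -0.33, SE 0.13, adjusted p = 0.0906). In the list for NRF1, the transcription factor that raises proteasome genes when the proteasome is inhibited, 2 of 6 rose and none fell, where 9.67% of all genes tested rose and 11.5% fell. Ddi2, the protease that activates NRF1, had 59.1, 51.6 and 65.6 CPM in Lmna HOM, against 44.0, 36.1 and 45.1 CPM in Lmna WT (log2 fold change 0.49, SE 0.14, adjusted p = 0.0289). Ufd1, a cofactor of the p97 segregase, had 59.7, 52.0 and 57.2 CPM in Lmna HOM, against 41.9, 43.3 and 39.2 CPM in Lmna WT (log2 fold change 0.44, SE 0.11, adjusted p = 0.0217). The p97 segregase itself, Vcp, had 238, 274 and 224 CPM in Lmna HOM, against 289, 338 and 306 CPM in Lmna WT. Its groups did not overlap and Lmna HOM was lower, but it did not pass (log2 fold change -0.34, SE 0.13, adjusted p = 0.0840). NRF1 itself (Nfe2l1) did not pass (log2 fold change 0.13, SE 0.13, adjusted p = 0.476).

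Of the ubiquitin shuttles, 1 of 5 fell, where 11.5% of all genes tested did. This was Rad23b, which had 104, 103 and 93.4 CPM in Lmna HOM, against 126, 133 and 142 CPM in Lmna WT (log2 fold change -0.42, SE 0.11, adjusted p = 0.0227). Its groups did not overlap. Of the 8 peptide loading and interferon genes, 1 fell, close to the 11.5% of all genes tested. This was Erap1, which trims peptides for MHC class I, with 33.0, 37.1 and 29.6 CPM in Lmna HOM, against 44.2, 46.1 and 42.2 CPM in Lmna WT (log2 fold change -0.41, SE 0.12, adjusted p = 0.0427). The median log2 fold change was -0.05 for the associated factors, 0.16 for the NRF1 list, -0.11 for the shuttles and 0.17 for the peptide loading list.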

How the data were processed

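Per the labels' protocols, sorted satellite cells gave stranded total RNA libraries depleted of ribosomal RNA. The authors deposited raw counts of reads per Ensembl gene, 1 file per library. The submitters' processing notes list HTSeq 0.6.1, STAR 2.5.2b and Trimmomatic 0.32, with build mm10. Strand setting and annotation: not given in the sources used here. Summary lines, 45.0 to 49.8% of reads, were left out of totals and tests. 38861 of 39059 genes matched GENCODE release M21 on GRCm38, which gave symbols and lengths.

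Counts were tested in R 4.3.3 with edgeR 4.0.16: filterByExpr (minimum count 10, total 15), TMM, the quasi-likelihood test without covariates, Benjamini-Hochberg adjustment over 14099 genes. The standard error is the log2 fold change divided by the square root of F. CPM use TMM-scaled totals over all genes. The fit was also run once with totals over the tested genes only, after the first results were seen; the first version was kept, and the other is among the alternatives. DESeq2 1.42.0 was an alternative. The test was checked on simulated data of 13895 genes, with 67 changed 1.5-fold, 66 changed 2-fold and 65 changed 4-fold. It recovered 13.4% of genes changed 1.5-fold, 60.6% of those changed 2-fold and 89.2% of those changed 4-fold. Of the genes called there, 6.14% were false. Far fewer genes were changed there than the 2980 called in the data. The adjustment was therefore stricter there, and these rates need not hold for the members. A member that was not called may still have changed by a small amount. Near-identical copies are BLAST 2.17.0 matches of at least 95% identity over at least 100 bases. Replicates of a genotype differed by more than sampling noise (chi-square per gene 8.35 to 22.5). Reads carry no molecular identifiers and are not independent molecules.

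The members and lists were chosen with earlier results of these data known. Given in full are the catalytic subunits, activators, Psmf1, Psmg1 to Psmg4, and per class the called members (up to 4), or the member with the smallest p. Of other lists, up to 3 called genes are given, or the most abundant. Psmd8, Psmd7, Mki67, Gm42418, Nfe2l1, Vcp, Ptprc and the ratios other than those of the immunoproteasome subunits were added after values were seen. A few genes, and 1 list that turns on them, are not reported here.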

Additional observations from a re-analysis of the deposited data

How the results depend on the processing

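The number of genes called, 2980 in all, was 1933 with Y-linked reads, present or absent, as covariate and 1576 to 4002 when a library was left out. Members called higher, 0 in the analysis reported, numbered 1 (Psmd8) with DESeq2 size factors, library totals, the DESeq2 Wald test and no filter on low counts, 0 to 1 when a library was left out, and 4 (Psma6, Psmc1, Psmc2 and Psmd8) without both libraries high in Gm42418. Members called lower, 2 in the analysis reported, numbered 1 (Psmd14) with library totals, the DESeq2 Wald test, no filter, the replicate block and the Y-linked covariate, 0 to 2 when a library was left out, and 0 without both libraries high in Gm42418. Over all genes, 1695 of 14359 were called higher and 2163 lower without both libraries high in Gm42418, beside 4 and 0 of the 46 members. Library totals over the tested genes, an alternative added after seeing the data, gave the same 2 members and an adjusted p of 0.0407 for Psme1 and 0.0508 for Psmd8. Without both libraries high in Gm42418, log2 differences in summed level were 0.059 for the 20S core and 0.22 for the 19S particle, and the 19S to 20S ratio differed by 0.16. When a library was left out, the sums ran from -0.19 to 0.012 for the 20S core and 0.0090 to 0.18 for the 19S particle, the highest of both without Lmna WT replicate 2. Leaving out both libraries high in Gm42418 turned the sign of Psmb5 (0.12), Psmb6 (0.066), Psmb9 (-0.30) and Psmg3 (0.23). When a library was left out, log2 fold changes ran from -0.49 to 0.034 for Psmb5, -0.23 to 0.030 for Psmb6, -0.22 to 0.081 for Psmb8, -0.20 to 0.54 for Psmb9 and -0.77 to 0.16 for Psmg3. None of these genes was called. Over the 15 alternatives, 19 of the 46 members changed sign at least once, with sizes up to 0.28 in the analysis reported, and 27 never did. Deviations of same-numbered libraries had correlations of -0.036, 0.022 and -0.096, so pairing by number was not shown. With 3 libraries per genotype these values cannot exclude it, and both libraries numbered 2 were high in Gm42418. The replicate block gave 2437 genes called and an adjusted p of 0.0998 for Psme1 and 0.0772 for Psmd8. The cause of these changes was not tested. All alternatives on ratios and sums were chosen after seeing the data.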
